A study of Mus musculus with 2 samples.

Results

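The microRNA (miRNA) genes of microglia and other leukocytes are described here in the mouse cerebral cortex. The members are the 8 rows of the count files whose gene symbol in GENCODE M21 is Mir142, Mir223, Mir146, Mir146b, Mir155, Mir150, Mir342 or Mir511, of 2202 miRNA genes listed. They were picked by name for their known association with these cells, and no measured value entered the rule, although earlier results of these data were known when they were chosen. The libraries were made from total RNA of the left cerebral cortex of B6CASTF1/J males, hybrids of the B6 and CAST strains, at 10 days of age, with no treatment named. There was 1 group of 2 biological replicates, each 1 library from a separately numbered male. No condition was compared, so p-values set these 2 libraries against each other and say nothing of other animals.

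Microglia are the resident macrophages of the brain, and leukocytes also reach cortical RNA through blood vessels and the meninges. A miRNA is cut from a hairpin precursor and guides silencing proteins to mRNAs that pair with its seed, the bases from the second to the eighth. miR-142 is made across blood-derived cells, miR-223 mainly in granulocytes and other myeloid cells, and miR-150 in mature lymphocytes. miR-155 is induced by inflammatory signals in macrophages, and miR-146a and miR-146b dampen the same signalling. Mir342 lies in Evl and is also expressed outside leukocytes, and Mir511 lies in Mrc1, the mannose receptor gene of macrophages.

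The mature sequences below are those by which reads are told apart or joined into a family. They come from the RefSeq table for GRCm38.p6, in which all 8 genes had at least 1 mature strand and 14 strands were listed. Capitals mark the seed. The deposited counts sum both strands (arms) of a hairpin, so which arm gave the reads was not measured. The first pair shares its seed, and the next 3 lines show the arms of Mir142 and the strand annotated on the opposite side of that locus. The remaining lines have 1 arm for each other gene.
miR-146a-5p: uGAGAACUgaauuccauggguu
miR-146b-5p: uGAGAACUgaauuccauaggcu
miR-142a-5p: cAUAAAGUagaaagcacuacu
miR-142a-3p: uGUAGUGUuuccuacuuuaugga
miR-142b: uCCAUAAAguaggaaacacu
miR-155-5p: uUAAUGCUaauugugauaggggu
miR-223-3p: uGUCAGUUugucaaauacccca
miR-342-3p: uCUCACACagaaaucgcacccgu
miR-150-3p: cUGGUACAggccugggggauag
miR-511-3p: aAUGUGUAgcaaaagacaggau

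The 14 listed arms of the 8 genes held 13 different seeds. Only GAGAACU occurred in 2 of these genes, as the seed of miR-146a-5p and miR-146b-5p. None of the 13 seeds was found in the mature strand of any other gene, among 1679 mature miRNAs and 1398 seeds in the table. The comparison covers the listed arms only: for Mir150 and Mir511 it used the 3p arm, and the seeds of miR-150-5p and miR-511-5p were not compared. miR-146a-5p and miR-146b-5p were identical at 20 of 22 bases and differed by G18A and U21C, counted from the 5′ end with the miR-146a base first. Their first 17 bases are the same, so a read that ends there cannot be assigned to either gene.

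The genes are spread over 7 chromosomes and share no host. Mir142 lies on chromosome 11 at 87756864 to 87756927 (mm10, plus strand), in an intron of the long noncoding RNA Mir142hg. Mir155, on chromosome 16 at 84714140 to 84714204, overlaps an exon of Mir155hg, also a long noncoding RNA. Mir223, on chromosome X at 96242817 to 96242926, lies in an exon of F630028O10Rik. Mir342 (chromosome 12, 108658620 to 108658718), Mir511 (chromosome 2, 14261003 to 14261081) and Mir146b (chromosome 19, 46342762 to 46342870) lie in introns of the protein-coding genes Evl, Mrc1 and Mfsd13a. No same-strand host was annotated for Mir150 (chromosome 7, 45121757 to 45121821) or for Mir146 (chromosome 11, 43374397 to 43374461, minus strand). Mir146 was the only member on the minus strand. The hairpins were 64 to 110 bases long, and their GC content ran from 40.0% in Mir146 to 63.1% in Mir150.

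The leukocyte genes spanned 3 orders of magnitude, and 1 gene held most of their reads. Levels are given in CPM, the reads on the gene's own strand per 1000000 such reads assigned to any miRNA gene. There were 2677910 assigned reads in replicate 1 and 1750076 in replicate 2. Because reads come from whole mature strands, CPM were not divided by hairpin length. Of the 8 genes 7 were detected, that is reached 2 CPM in both libraries, against 20.1% of all listed miRNA genes. Mir511 was the exception. The genes were named for being known in such cells, so this count is a description. Median levels were alike: 83.5 CPM over the 8 genes and 89.4 CPM over the 442 detected genes, with 3 members above the latter. The first median includes Mir511, which was not detected, so the sets were not filtered alike. In bulk tissue, fewer cells of a type and less RNA per cell cannot be told apart.

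**Figure D1:**
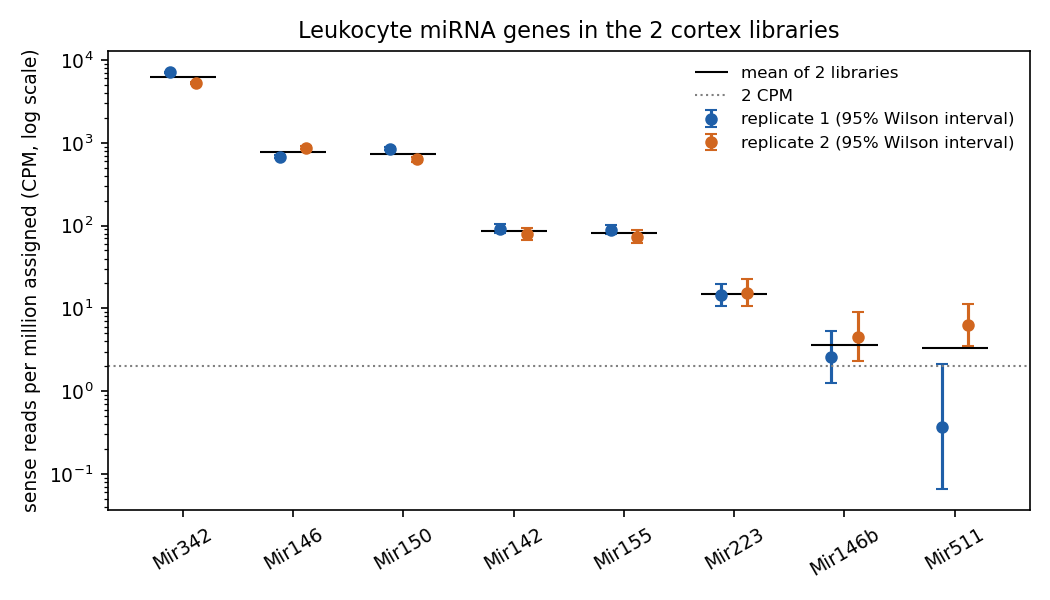
Level of each leukocyte miRNA gene in CPM (log axis) in replicate 1 (blue) and replicate 2 (orange), with 95% Wilson counting intervals, the mean of both libraries (black line) and the 2 CPM minimum (dotted line). The levels run from Mir342 at 6206 CPM to Mir511 at 3.33 CPM, and only Mir511 in replicate 1 lies under the dotted line.

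Mir342 was the most abundant member. It had 19091 reads in replicate 1 and 9246 in replicate 2, or 7129 and 5283 CPM (mean 6206 ± 1305, SD, n = 2). It ranked 34th of all miRNA genes by mean CPM. Its host Evl encodes a regulator of actin filaments, and Mir342 is also expressed outside leukocytes, so its level cannot be assigned to microglia here. It took 80.6% of the reads of the 8 genes in replicate 1 and 75.8% in replicate 2. In replicate 1 the 8 genes together held 0.885% of assigned reads, with a 95% Wilson interval of 0.874 to 0.896. In replicate 2 they held 0.697%, with an interval of 0.684 to 0.709. Without Mir342 the share was 0.172% (0.167 to 0.177) and 0.168% (0.162 to 0.174). The shares with Mir342 lay apart by more than counting error, and those without it had overlapping intervals. Most reads of the latter were of Mir146 and Mir150: 1811 and 2261 of 4602 in replicate 1, and 1530 and 1099 of 2944 in replicate 2. The cells that made them were not measured, so the share without Mir342 is not a measure of leukocyte content.

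Mir146 and Mir150 came next, at levels that did not separate. The cells that made these reads were not measured, so the Mir150 level cannot be assigned to lymphocytes here. Mir146 had 1811 reads in replicate 1 and 1530 in replicate 2, or 676 and 874 CPM (mean 775 ± 140.0, SD, n = 2). Mir150 had 2261 and 1099 reads, or 844 and 628 CPM (mean 736 ± 153). Mir150 was the higher of the pair in replicate 1 and Mir146 in replicate 2, so their order is not fixed by these data. Mir342 stood 10.5-fold above Mir146 in replicate 1 and 6.04-fold in replicate 2, with no overlap between the libraries.

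Mir142 and Mir155 followed at nearly the same level. Mir142, the gene made across blood-derived cells, had 244 reads in replicate 1 and 140 in replicate 2, or 91.1 and 80.0 CPM (mean 85.6 ± 7.86, SD, n = 2). Mir155, the gene induced by inflammatory signals, had 239 and 129 reads, or 89.2 and 73.7 CPM (mean 81.5 ± 11.0). Mir142 was the higher in both libraries, by 1.02-fold and 1.09-fold, but the ranges of the genes over the libraries overlapped. Mir150 stood 9.27-fold and 7.85-fold above Mir142, without overlap.

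The myeloid gene Mir223 was lower, and the last 2 members were near the limit of counting. Mir223 had 39 reads in replicate 1 and 27 in replicate 2, or 14.6 and 15.4 CPM (mean 15.0 ± 0.611, SD, n = 2). There were 6.26 reads of Mir142 for each read of Mir223 in replicate 1 (95% exact interval 4.45 to 9.01) and 5.19 in replicate 2 (3.42 to 8.15). Mir223 was thus the lower of these 2 blood-cell genes in each library, in a proportion that did not differ beyond counting error. Mir146b had 7 and 8 reads, or 2.61 and 4.57 CPM, and Mir511, the gene within the macrophage receptor gene Mrc1, had 1 and 11 reads, or 0.373 and 6.29 CPM. A count of 3 reads equals 1.12 CPM in replicate 1 and 1.71 CPM in replicate 2, so the single read of Mir511 in replicate 1 lies under the level that counting can support. Mir146b was higher than Mir511 in replicate 1 and lower in replicate 2.

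**Figure D2:**
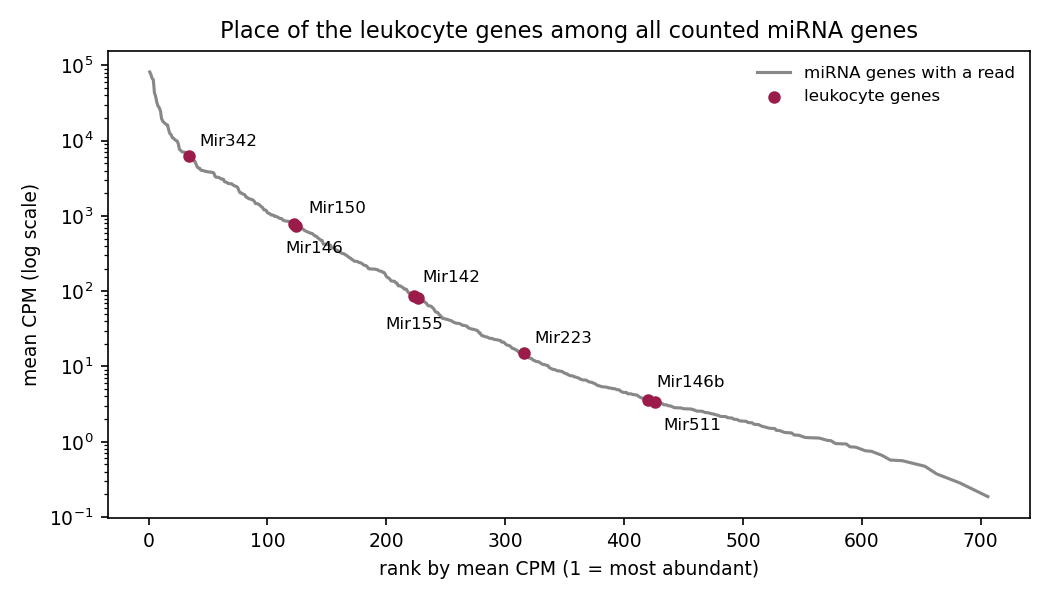
Mean CPM (log axis) of every miRNA gene with a read against its rank (1 is the most abundant), with the 8 leukocyte genes marked. Mir342 lies at rank 34, Mir146 and Mir150 at 122 and 124, Mir142 and Mir155 at 223 and 227, Mir223 at 316, and Mir146b and Mir511 at 420 and 426.

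The 8 genes thus fell into steps of Mir342 alone, Mir146 with Mir150, Mir142 with Mir155, Mir223 alone, and Mir146b with Mir511. Within each pair the ranges of the 2 libraries overlapped, and between neighbouring steps they did not. Mir511 in replicate 2 exceeded Mir146b in both libraries but stayed under Mir223. The rank curve places these steps among all miRNA genes.

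The members that share a seed had very unequal levels. There were 259 reads of Mir146 for each read of Mir146b in replicate 1 (95% exact interval 125 to 644) and 191 in replicate 2 (96.8 to 444). Almost all assigned reads of the GAGAACU seed family came from Mir146. The hairpins share a stretch of at least 20 bases, the only such sharing that any member has with another locus. Reads that map to both genes were assigned to neither and are missing from both counts. How many there were was not measured.

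Reads of the leukocyte genes came from the annotated strand. Over both libraries the 8 genes had 35883 sense reads and 2 antisense reads, and both antisense reads lay at Mir150 in replicate 1. The Mir142 locus carries a second annotated hairpin, Mir142b, on the opposite strand. All 20 bases of miR-142b, printed above, are complementary to miR-142a-3p. Mir142b had 0 reads in replicate 1 and 0 in replicate 2 on its own strand, under the 3-read limits of 1.12 and 1.71 CPM. In the deposited column that ignores strand, Mir142 had 0 reads in both libraries, a column in which reads over 2 genes count as ambiguous. A strandless reading would therefore list Mir142, the broadest leukocyte gene of the group, at 0.

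Between the libraries the 7 detected leukocyte genes stayed within 2-fold, and Mir511 differed. The log2 ratio of replicate 2 to replicate 1 was computed with 0.5 reads added to each count. A gene was called where Fisher's exact test (two-sided), Benjamini-Hochberg adjusted over all 542 genes tested, gave p under 0.05 and the log2 ratio was 1 or more in size. Of the 8 members 1 was called, against 12% of all genes tested. That call was higher in replicate 2, where 5.72% of genes tested were called, and 0 members were called lower, against 6.27%. The median log2 ratio was -0.05 over the 8 members and -0.09 over the 542 genes. With TMM library totals it was 0.01 over the members and -0.04 over all genes tested, so the sign of the members' median depended on the scaling.

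**Figure D3:**
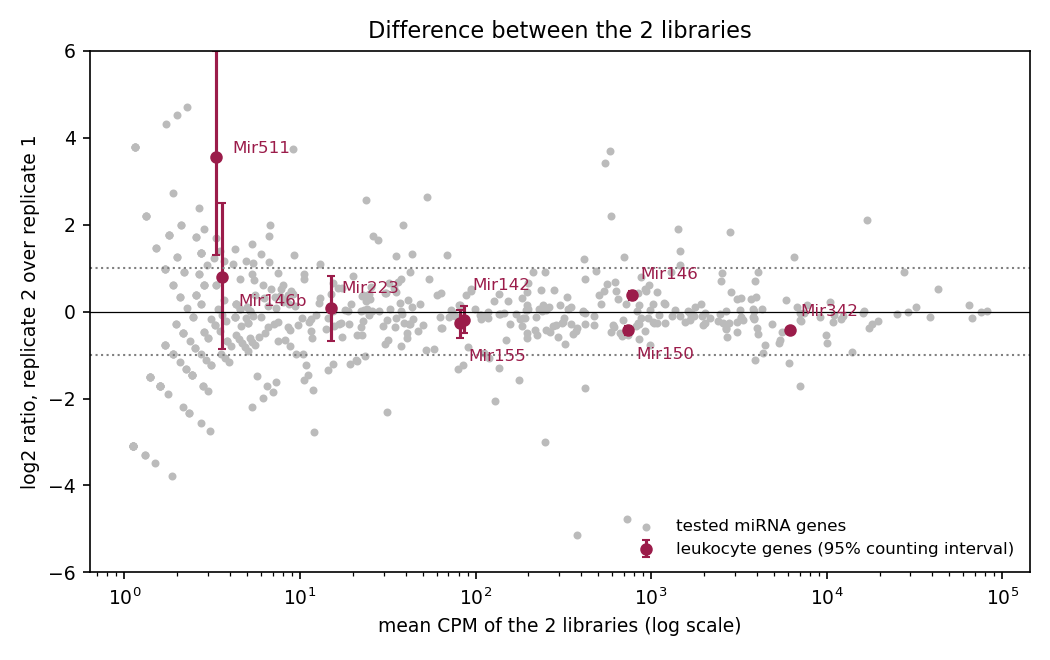
Log2 ratio of replicate 2 to replicate 1 against mean CPM (log axis) for the 542 tested miRNA genes (grey) and the 8 leukocyte genes (red, with 95% exact counting intervals; that of Mir511 continues beyond the axis to 9.50). Dotted lines mark a log2 ratio of 1 in either direction, and only Mir511 at 3.55 lies outside them among the leukocyte genes.

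Mir342, Mir150 and Mir146 differed between the libraries by more than counting error but by less than 2-fold. Mir342 had a log2 ratio of -0.43 (95% counting interval -0.47 to -0.40, Fisher's exact test, adjusted p = 4.15e-127). Mir150 had nearly the same ratio at -0.43 (-0.53 to -0.32, Fisher's exact test, adjusted p = 1.85e-15). Mir146 went the other way, at 0.37 (0.27 to 0.47, adjusted p = 9.83e-13). With Mir150 lower and Mir146 higher in replicate 2, the summed share of the genes other than Mir342 was nearly equal in the libraries. The median size of the log2 ratio over the 442 detected genes was 0.35, so these 3 sizes were ordinary for this pair of libraries: 51.4% of detected genes had a smaller size than Mir146, 57.2% than Mir150 and 57.7% than Mir342.

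The other detected members did not pass the test on counts. Mir142 had a log2 ratio of -0.19 (95% counting interval -0.50 to 0.12, Fisher's exact test, adjusted p = 0.355) and Mir155 had -0.27 (-0.60 to 0.04, adjusted p = 0.168). Mir223 had 0.09 (-0.68 to 0.83, adjusted p = 0.883). Mir146b had 0.79 (-0.85 to 2.50, adjusted p = 0.434), an interval that allows a difference of more than 5-fold. The counting intervals of Mir142, Mir155 and Mir223 all lay within 2-fold.

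Mir511 was the called member. Its 1 read in replicate 1 and 11 reads in replicate 2 gave a 16.8-fold ratio of CPM with a 95% exact counting interval of 2.45 to 724 (Fisher's exact test, adjusted p = 0.000918). It entered the test only through its level in replicate 2, and it was not tested where 10 CPM in either library were required. Per read of Mir142 there were 0.00410 reads of Mir511 in replicate 1 (0.000103 to 0.0230) and 0.0786 in replicate 2 (0.0383 to 0.145), and these intervals did not overlap. The ratios reuse the same reads of Mir511, so they are not separate support for the call. Markers of the choroid plexus and ependyma, the epithelium lining the ventricles, were also higher in replicate 2, except Mir211 (1.12 and 1.14 CPM). Of these 4 genes 3 were detected, against 20.1% of all listed genes. Of the 3 tested 2 were called higher in replicate 2, against 5.72% of all genes tested. The summed share of the 4 genes was 0.112% in replicate 1 and 0.275% in replicate 2. Mir34c had 93.4 and 993 CPM, Mir449a 249 and 578 CPM, Mir204 775 and 1176 CPM, and Mir211 had 3 and 2 reads. Their part in the result for Mir511 was not tested.

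The main red blood cell miRNAs were far lower in replicate 2. The sources used here do not state whether blood was flushed from the vessels. Summed over 3 erythroid genes, the share was 0.0814% in the first replicate, with a 95% Wilson interval of 0.0781 to 0.0849, against 0.00566% in the other, with an interval of 0.00465 to 0.00689. Mir451a, the main miRNA of red blood cells, had 1973 and 36 reads, Mir144, from the same locus, 140 and 18 reads, and Mir486 68 and 45 reads. Replicate 1 was therefore the high library for Mir451a and Mir144, which were called lower in replicate 2, while Mir486, at 25.4 and 25.7 CPM, was not called. The miRNA gene Mir3107 is annotated on the opposite strand at Mir486, and Mir451b at Mir451a. Sequence shared with such overlapping genes was not compared. Reads that map to both genes may therefore be missing, and the level Mir486 count need not follow all its reads.

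Mir142 and Mir223 did not fall in proportion to Mir451a. The assigned count of the erythroid gene Mir486 did not fall either (25.4 and 25.7 CPM), with the limit given above. The comparison below thus holds for Mir451a alone, and the source of the Mir142 and Mir223 reads was not tested. There were 0.124 reads of Mir142 for each read of Mir451a in replicate 1 (95% exact interval 0.108 to 0.141) and 3.89 in replicate 2 (2.68 to 5.78). For Mir223 the values were 0.0198 (0.0140 to 0.0271) and 0.750 (0.438 to 1.27). In both cases the intervals of the libraries did not overlap. The endothelial and mural genes held 1.36% and 1.52% of assigned reads. None of the 3 was called, against 12% of all genes tested. Mir126a passed Fisher's exact test (adjusted p = 1.41e-52) at under 2-fold, and the others did not pass it. Mir126a, the endothelial gene, had 9622 CPM in replicate 1 and 11137 CPM in replicate 2, Mir143 3821 and 3872 CPM, and Mir145a 195 and 205 CPM. Mir142 amounted to 0.00947 reads per read of Mir126a in replicate 1 (0.00831 to 0.0107) and 0.00718 in replicate 2 (0.00604 to 0.00848).

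**Figure D4:**
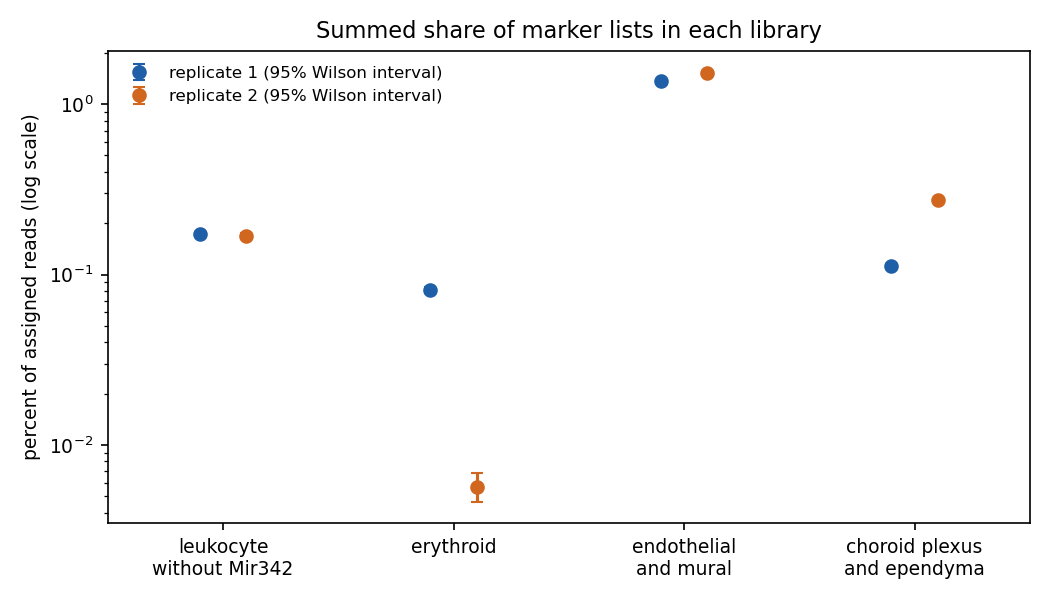
Summed share of assigned reads (percent, log axis) of the 7 leukocyte genes without Mir342, and of the erythroid, the endothelial and mural, and the choroid plexus and ependyma genes, in replicate 1 (blue) and replicate 2 (orange) with 95% Wilson intervals, most of them smaller than the points. The shares of the 7 leukocyte genes, mostly reads of Mir146 and Mir150, lie close together at 0.172% and 0.168%. The erythroid share is 14.4-fold higher in replicate 1 and the choroid plexus share 2.46-fold higher in replicate 2.

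Neuronal genes are given for comparison of level, and they do not test the tissue label. Mir128-1, Mir137 and Mir132 together held 3.39% of the assigned reads of replicate 1 and 2.68% of those of replicate 2, above the 8 leukocyte genes in both. They did not move together: Mir132 was called higher in replicate 2 (3886 and 9221 CPM, log2 ratio 1.25), while Mir128-1 (18242 and 9510 CPM, log2 ratio -0.94) and Mir137 (11808 and 8069 CPM, log2 ratio -0.55) were lower there at under 2-fold. Mir128-1 shares 20 bases with Mir128-2, so its count leaves out reads that map to both.

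Other miRNA genes with known roles in immune cells, which are also made by other cells of the cortex, held 6.93% of the assigned reads of replicate 1 and 6.56% of those of replicate 2. Most of these reads were of Mirlet7e, Mir125a and Mir99b, all at the host gene Spaca6. They had 68203, 34267 and 28925 of 185457 reads in replicate 1, and 42913, 19745 and 5745 of 114828 in replicate 2. Of 20 such genes 19 were detected, against 20.1% of all listed genes, and 4 were called, against 12% of all genes tested. Of the calls 2 were higher in replicate 2 (5.72% of all genes tested) and 2 lower (6.27%). Mir21a, which rises in activated glia and macrophages, had 808 CPM in replicate 1 and 2106 CPM in replicate 2 (log2 ratio 1.38). Mir222 had 595 and 2238 CPM (log2 ratio 1.91). Mir99b had 10801 and 3283 CPM (log2 ratio -1.72), and Mir16-1, which shares 20 bases with Mir16-2, had 643 and 191 CPM (log2 ratio -1.75). Genes of the list at the same hosts did not follow these 2. Mir125a and Mirlet7e, at Spaca6 with Mir99b, had log2 ratios of -0.18 and -0.05. Mir15a, at Dleu2 with Mir16-1, had 0.47. The median log2 ratio of the 20 genes was 0.01. The median size of the log2 ratio was 0.41 over the 19 detected genes, 0.37 over the 7 detected leukocyte genes and 0.35 over all 442 detected genes. Mir147, a gene induced by inflammatory signals in macrophages, was the 1 not detected, with 4 and 7 reads.

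By level in the 2 libraries, the gene nearest to Mir142 was Mir592, followed by Mir155. Likeness was the distance of log2(CPM + 1) over both libraries, which was 0.10 for Mir592 (88.9 and 74.9 CPM) and 0.12 for Mir155. The nearest to Mir342 were Mir130a at a distance of 0.23 (6431 and 4675 CPM) and Mir379 at 0.32 (7493 and 6579 CPM). With 2 libraries of 1 group, likeness rests on level alone.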

How the data were processed

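MicroRNA sequencing of total RNA from 2 left cortex samples was analysed. The authors made raw counts of reads for each miRNA gene and deposited 1 file per library. The assembly (mm10) and annotation (M21) are named in text deposited beside those files, and the aligner, the counter and the trimming are not given there or in the labels. The 3 count columns ignore strand, take the gene's strand and take the opposite strand, as their values show. The sense column was used, and the 4 rows naming no gene were left out of totals. In replicate 1, 25.5% of all reads were unmapped, 38.2% mapped to several places and 6.93% mapped outside the miRNA genes. In replicate 2 these were 42.4%, 28.3% and 5.74%. CAST alleles that differ from mm10 were not considered. Intervals cover counting error only, and they and Fisher's exact test treat reads as independent. PCR copies without molecular identifiers are not independent, so the intervals may be too narrow and the p-values too small.

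Differences between the libraries were tested with Fisher's exact test on genes at 2 CPM or more in either library, with Benjamini-Hochberg adjustment over all of them. Only this test was tried on simulated counts, which held counting error alone, so variation between animals or from PCR was not covered. Alternatives used edgeR 4.0.16 (TMM) and DESeq2 1.42.0 (size factors) in R 4.3.3, and other work used Python 3.11.15, scipy 1.17.1 and pandas 2.3.3. Hairpins were compared by 20-base stretches, except between genes that overlap in the genome. Named were all 8 members, the 3 erythroid and 3 endothelial and mural genes, called genes of the other immune list, and the 2 genes nearest in level to Mir142 and to Mir342. The neuronal and choroid plexus genes, Mir147, Mirlet7e, Mir125a and Mir15a were named in addition. The members, lists and rules were chosen with earlier results of these data known.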

Additional observations from a re-analysis of the deposited data

How the results depend on the processing

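The median level of the 8 genes, 83.5 CPM, was 51.6 CPM with the unstranded counts, in which Mir142 has 0 reads, and 22.3 CPM when all reads of the file formed the total. Their share of 0.791% was 0.212% of all reads and 0.170% without Mir342. The order kept 3 of 8 places with the unstranded counts, again through Mir142. Leaving out either replicate, or dividing by hairpin length, kept 6 of 8 places, and the swaps were within the pairs named above. The 1 called member became 0 with a 10 CPM minimum, because Mir511 was then not tested. It became 4 with no minimum on the ratio, where 42.3% of all genes tested passed and Mir146, Mir150 and Mir342 joined. The count of called members was 1 with TMM totals, DESeq2 size factors, the unstranded counts, a minimum of 1 read or 2 reads added. Detected members numbered 6 to 8 over the alternatives tried. The ratio of Mir146 to Mir146b averaged 225 and was 191 to 259 in single libraries. With 1 group there was no contrast to leave a replicate out of, so the library test could not be repeated that way. Depth limits Mir146b and Mir511, whose counts were 11 reads or fewer in each library.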
